A study of Homo sapiens with 12 samples.

Results

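Among the 21874 transcription units that the depositors segmented from TT-Seq coverage of K562 cells, 2518 carried the class antisense RNA and overlapped no GENCODE gene. These 2518 units are described here by their position against the protein-coding (mRNA) unit on the opposite strand and by the counts on both strands. Another 1028 antisense RNA units overlapped GENCODE and were not taken. The units and their classes came from TT-Seq itself, so a high TT-Seq level was part of how they were chosen. The comparison of 4sU-Seq with Total RNA-Seq and the polymerase ChIP played no part in it.

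K562 is a human chronic myeloid leukaemia line with erythroid features that carries the BCR-ABL fusion. All 8 RNA libraries came from K562 cells given 500 µM 4-thiouridine (4sU), a uridine analogue taken up into new RNA, for 5 min, so the total RNA libraries were labelled too. In TT-Seq the RNA was sheared by sonication and its labelled part then purified. In 4sU-Seq the labelled RNA was purified without shearing. Total RNA-Frag-Seq (below, sheared total RNA) was sonicated and not purified. Total RNA-Seq (below, unsheared total RNA) had neither step. ChIP with 2 polymerase II antibodies, N20 and one against the serine 2 phosphorylated form (S2P), was made after crosslinking for 7.5 min. Each of the 6 groups had 2 libraries. The RNA pairs are called biological duplicates. The ChIP pairs carry no such statement, so their p-values measure only the spread between libraries, which may be technical.

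Binned counts summed to 68913035 and 71317148 in TT-Seq, 54295993 and 47092776 in 4sU-Seq, 43136737 and 33336294 in sheared total RNA and 30382514 and 25909021 in unsheared total RNA. The ChIP libraries held 12598494 to 73660126. T cell (1 of 5 markers with a unit, CD3D, 1.12 to 7.65 CPM, counts scaled to a common library size), B cell (0 of 4) and myeloid markers (1 of 4, LYZ) were low or without a unit, while the epithelial EPCAM, KRT18 and KRT19 summed to 57.5 to 245 CPM. In bins of mRNA units with no unit opposite, the other strand held a median of 0.282 to 0.648% of the sense counts, and 0.875 to 1.54% at the 90th percentile, which sets the level below which antisense counts cannot be told apart from sense reads on the wrong strand.

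Antisense RNAs are transcribed from the strand opposite a gene, often from the same nucleosome-free region that serves the gene's promoter or from an enhancer or a second initiation site inside the gene. Most are capped, non-coding and short-lived: early polyadenylation sites and the Integrator complex end their transcription, and the nuclear exosome with its helicase MTREX degrades them. Because such RNA hardly accumulates, it is faint in steady-state RNA-seq and is found mainly by labelling or by methods that read engaged polymerase.

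Sequence is shown for 6 promoters at which a described antisense unit began, each 250 bases before to 50 bases after a RefSeq gene start of GRCh38.p14, written 5′ to 3′ on the strand of that RefSeq gene. Capitals mark letters of 5 motifs searched on both strands: the TATA box TATAAA, the GC box GGGCGG, the CCAAT box, the GATA motif AGATAA and the ETS motif CCGGAA. The first 2 are promoters of RefSeq non-coding genes that ran in the direction of the antisense unit. LOC105376578 started 230 bp before the unit opposite SPTY2D1, and CHD4-AS1, opposite the nucleosome-remodelling helicase CHD4, 29 bp before its unit.

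LOC105376578 chr11:18634099-18634398, plus strand: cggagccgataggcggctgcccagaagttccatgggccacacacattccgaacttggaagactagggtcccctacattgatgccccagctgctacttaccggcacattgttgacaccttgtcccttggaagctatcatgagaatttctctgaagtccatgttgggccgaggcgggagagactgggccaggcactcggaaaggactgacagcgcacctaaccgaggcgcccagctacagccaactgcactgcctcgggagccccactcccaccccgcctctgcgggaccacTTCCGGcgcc

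CHD4-AS1 chr12:6568121-6568420, plus strand: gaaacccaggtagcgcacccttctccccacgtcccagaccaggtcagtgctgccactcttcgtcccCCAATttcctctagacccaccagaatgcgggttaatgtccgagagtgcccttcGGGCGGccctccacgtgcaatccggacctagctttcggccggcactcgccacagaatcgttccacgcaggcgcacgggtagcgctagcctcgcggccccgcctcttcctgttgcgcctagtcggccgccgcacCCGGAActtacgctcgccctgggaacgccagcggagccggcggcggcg

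The other 4 are promoters of coding genes that ran away from the antisense unit, which began within the 250 bases before the RefSeq start used for the gene. Starts of other transcripts of these genes were not examined. They were chosen after their values were seen, as the promoters that held the start of a named unit. Antisense starts lay 105 bp upstream of that start for CLK2 (a splicing kinase) and 104 bp for DNAL1 (an axonemal dynein light chain). They lay 118 bp upstream for LSM5 (an Sm-like RNA-binding subunit) and 148 bp for MFGE8 (a secreted milk-fat-globule protein). The MFGE8 stretch holds an ATG and an open reading frame before the start used, so that unit may begin inside the gene. Below, the MFGE8 promoter means this printed stretch.

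CLK2 chr1:155273455-155273754, minus strand: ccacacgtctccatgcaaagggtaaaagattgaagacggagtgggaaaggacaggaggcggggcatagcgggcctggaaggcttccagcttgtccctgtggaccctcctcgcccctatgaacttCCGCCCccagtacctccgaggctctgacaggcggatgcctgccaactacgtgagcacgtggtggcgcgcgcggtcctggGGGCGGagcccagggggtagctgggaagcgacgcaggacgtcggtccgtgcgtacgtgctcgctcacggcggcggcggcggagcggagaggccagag

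DNAL1 chr14:73644736-73645035, plus strand: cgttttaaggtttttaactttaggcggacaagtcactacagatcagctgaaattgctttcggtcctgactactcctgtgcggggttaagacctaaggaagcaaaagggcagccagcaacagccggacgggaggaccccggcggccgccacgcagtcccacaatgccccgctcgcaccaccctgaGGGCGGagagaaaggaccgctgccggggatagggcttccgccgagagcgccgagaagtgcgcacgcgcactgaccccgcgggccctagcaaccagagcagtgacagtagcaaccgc

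LSM5 chr7:32490331-32490630, minus strand: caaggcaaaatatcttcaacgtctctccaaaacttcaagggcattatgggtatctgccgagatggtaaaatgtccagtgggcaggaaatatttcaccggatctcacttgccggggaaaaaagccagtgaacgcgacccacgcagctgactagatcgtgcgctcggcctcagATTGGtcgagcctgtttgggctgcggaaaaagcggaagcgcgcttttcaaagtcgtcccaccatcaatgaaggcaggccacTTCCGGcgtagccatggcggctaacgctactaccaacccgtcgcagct

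MFGE8 chr15:88913119-88913418, minus strand: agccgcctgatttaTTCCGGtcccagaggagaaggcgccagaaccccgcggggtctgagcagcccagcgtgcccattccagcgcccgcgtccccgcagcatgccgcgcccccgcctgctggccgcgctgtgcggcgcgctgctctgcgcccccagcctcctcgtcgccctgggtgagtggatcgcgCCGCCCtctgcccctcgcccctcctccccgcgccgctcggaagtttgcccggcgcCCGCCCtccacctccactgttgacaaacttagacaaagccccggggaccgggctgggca

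The TATA box letters TATAAA and the GATA letters AGATAA were in none of the 6. GGGCGG or its reverse was in the promoters of CHD4-AS1, CLK2, DNAL1 and MFGE8, and CCGGAA or its reverse in those of LOC105376578, CHD4-AS1, LSM5 and MFGE8. In LSM5 a reverse CCAAT lay 79 bases before the gene's start.

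Such promoters were common among the starts. On chromosomes covered by the RefSeq promoter table, 705 of 2429 antisense units (29%) began within 1 kb upstream of a RefSeq gene of the other strand and 775 (31.9%) within 1 kb downstream. In all, 615 units (24.4%) began inside a 300-base RefSeq promoter of the other strand, 592 of them in the 250 bases before its start. These 615 promoters had a median C and G content of 68.3% and an observed-over-expected CpG ratio of 0.887, against 58.7% and 0.578 over all 34796 promoters in the table and 66.7% and 0.871 over the 4499 at starts of mRNA units. TATAAA was in 2.93% of them (all promoters 11.6%), GGGCGG in 79.7% (44.9%), CCAAT in 31.5% (34.6%), AGATAA in 3.25% (10.4%) and CCGGAA in 37.4% (17.2%). The 139 promoters within 500 bp of a unit start in the unit's own direction held TATAAA in 2.16%, GGGCGG in 76.3%, CCAAT in 28.1%, AGATAA in 1.44% and CCGGAA in 29.5%. In the promoters of mRNA units TATAAA was in 4.29%, GGGCGG in 76.9%, CCAAT in 39.2%, AGATAA in 4.29% and CCGGAA in 33.3%.

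Antisense units that began inside an mRNA unit mostly did so near its start. Of the 2518, 1586 (63%) overlapped an mRNA unit on the opposite strand, and these held 1489 different mRNA units. In 1526 the start lay inside the mRNA unit, at a median of 1474 bp from its start (quartiles 670 and 5764 bp), 68.8% of them in its first 10% and 1.25% in its last 10%. Among these, 993 ran out past the mRNA start (median start at 880 bp, median length 3306 bp) and 533 lay wholly inside (median start at 13815 bp, median length 1660 bp). A further 56 began past the 3′ end and ran in, and 4 spanned the whole mRNA unit.

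The remaining 932 overlapped no mRNA unit, although the class name is antisense. Of them, 326 began within 1 kb upstream of an mRNA unit start, running away from it, and 606 lay elsewhere. Of the 606, 416 overlapped the span of a protein-coding RefSeq gene on the other strand. Whether that gene had an mRNA unit elsewhere along its span was not checked. Gene strands came from the RefSeq promoters, so genes on chromosomes without them could not be counted. On the other strand of the 932, 480 had no unit of any class.

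Measured from the nearest mRNA unit start of the opposite strand, 338 antisense starts (13.4%) lay up to 1 kb upstream, 585 (23.2%) up to 1 kb downstream and 318 (12.6%) between 1 and 2 kb downstream. Between 1 and 10 kb upstream there were 19 (0.755%), and between 2 and 10 kb downstream 343 (13.6%). Farther off than 10 kb lay 345 (13.7%) upstream and 570 (22.6%) downstream. In the window from 1 kb upstream to 2 kb downstream lay 49.3% of these units, against 38.8% of the antisense units that overlap GENCODE, 41% of convergent and 42.9% of upstream antisense units outside GENCODE. The classes were drawn by the depositors, partly by position, so these shares are descriptions. A single mRNA unit held at most 3 antisense units, in MOB3B, QRICH1, NCOA7, COMMD3-BMI1 and CSNK1G1, and 87 held 2.

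**Figure D1:**
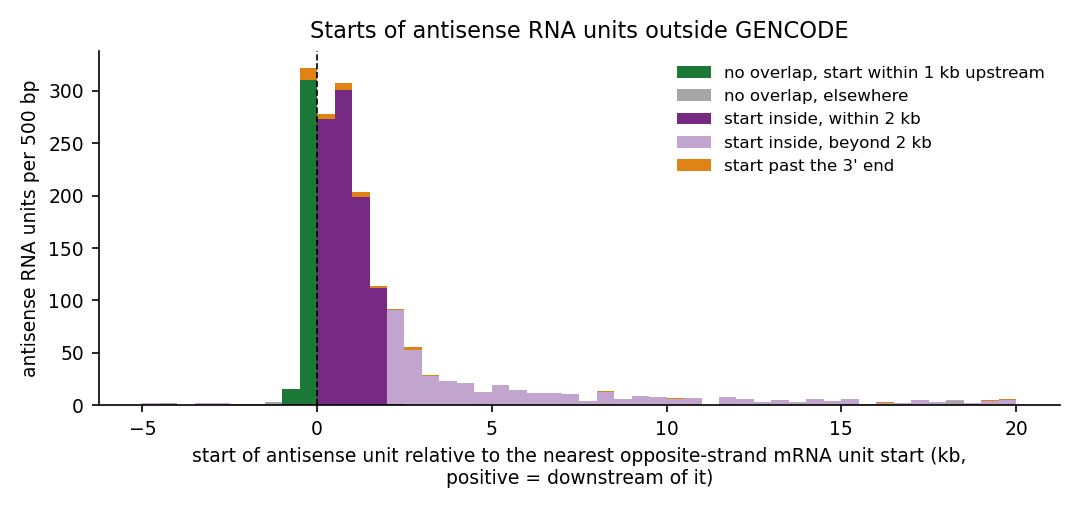
Distance of antisense unit starts from the nearest mRNA unit start of the opposite strand, in bins of 500 bp from 5 kb upstream to 20 kb downstream (x axis, kb), with the number of units in each bin (y axis). Of the 2518 units 1684 lie in this range, the fullest bin is the 500 bp just upstream with 322, and counts fall off steeply on the upstream side.

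RNA began sharply at these starts and polymerase peaked at or near them. Profiles over 3 kb on each side gave every unit the same weight, with an even spread at 3.23% per 200 bp bin. On the unit's own strand TT-Seq had 0.0818% of its counts in the bin before the start, 6.01% in the start bin and 12.9% in the next, an edge that the segmentation of TT-Seq by itself imposes. 4sU-Seq, which was not used to draw the units, had 0.604, 6.35 and 12.8% in the same bins. Over all units N20 ChIP, which carries no strand, was highest in the start bin itself with 11.9%, and S2P ChIP likewise with 8.42%. The 886 units that began inside within 2 kb of an mRNA start differed. There both peaked in the next bin, toward the mRNA start, N20 with 12.2% (11.4% in the start bin) and S2P with 9.56% (8.78%).

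For the 326 units upstream of an mRNA start polymerase peaked on the side of the mRNA start. N20 was highest in the bin before the antisense start with 23.1%, and had 19.8% in the start bin, while TT-Seq on the antisense strand had 24.8% in the bin after it. The median distance to the nearest RefSeq start of the other strand was 189 bp, less than the bin width, so polymerase cannot be placed between the starts. For the 640 units that began more than 2 kb inside an mRNA unit, N20 peaked at the antisense start with 9.23% and S2P with 7.54%. The plot of RNA and ChIP around the starts shows these peaks and the opposite-strand RNA, which for internal starts was 3.42% in the start bin in TT-Seq, near the even share.

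**Figure D2:**
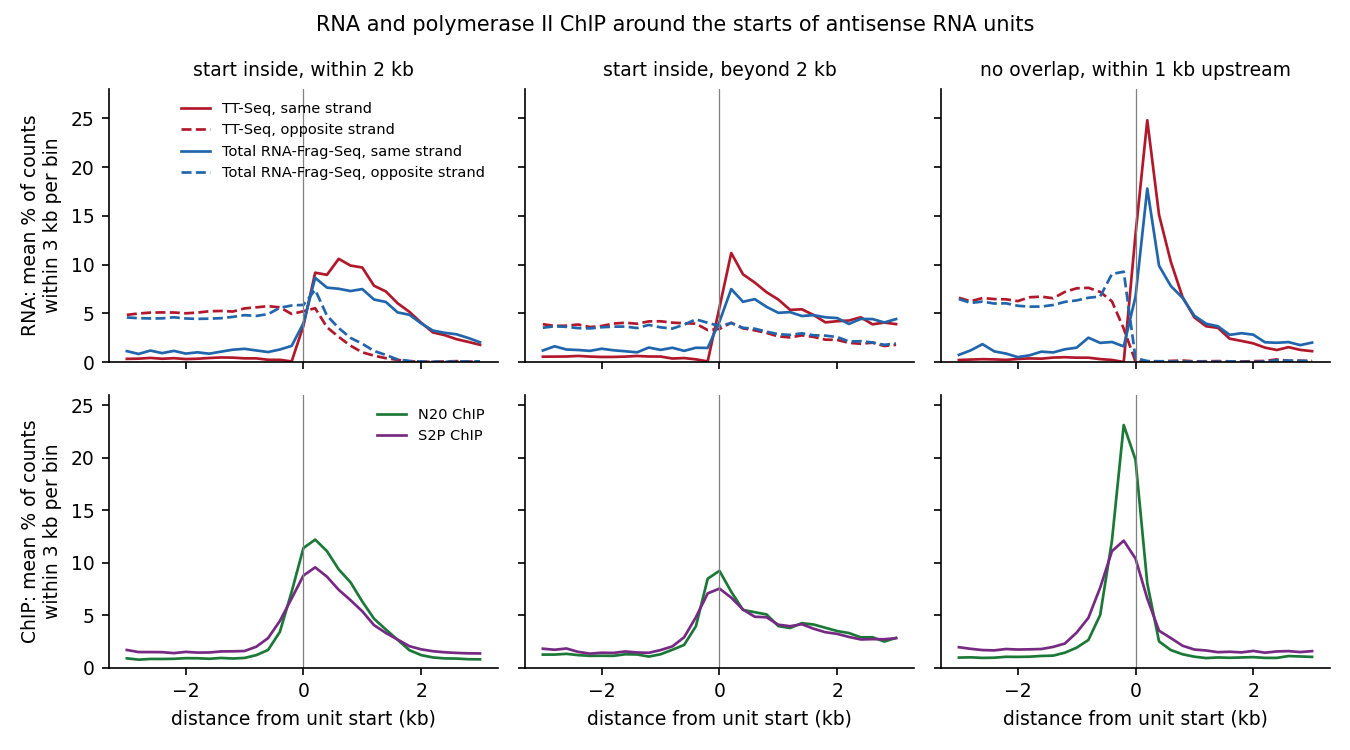
Mean share of each unit's counts within 3 kb (y axes, % per 200 bp bin) against distance from the unit start (x axis, kb), for starts inside an mRNA unit within 2 kb of its start (886 units), inside beyond 2 kb (640) and within 1 kb upstream of an mRNA start without overlap (326). Top row, TT-Seq and sheared total RNA on the unit's strand (solid) and the opposite strand (dashed), bottom row, N20 and S2P ChIP; N20 reaches 23.1% for the upstream units and 9.23% for units deep inside.

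With the quasi-likelihood test of edgeR over all units and p-values adjusted by Benjamini and Hochberg, N20 counts per bin at the start were above the flanks 1 to 2 kb away for 1579 of 2498 antisense starts with at least 20 counts and below them for 390. Over all 21411 starts tested, 60.3% were above and 11.1% below, so the antisense starts (63.2% above, median log2 2.50 against 2.36 over all) were near the background. S2P was above its flanks at 1460 starts and below at 353, against 53.4 and 12.8% of all starts. By position, N20 was above its flanks at 95.1% of the starts upstream of an mRNA start, 64.1% of those inside within 2 kb, 50% of those deeper inside and 58.2% of those elsewhere. Many starts share their window with an mRNA start: among the 615 more than 5 kb from any other unit start, N20 was above its flanks at 374 and below at 83 (median log2 2.14), and S2P at 347 and 97 (1.58).

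These RNAs were faint, and faintest without purification. The median unit had 57 and 60 counts in the TT-Seq libraries, 34 and 36 in 4sU-Seq, 7 and 6 in sheared total RNA and 7 and 6 in unsheared total RNA. Per kb of unit the medians were 0.308 and 0.322 CPM in TT-Seq, 0.264 and 0.307 in 4sU-Seq, 0.0866 and 0.0954 in sheared total RNA and 0.115 in both unsheared total RNA libraries. No count was found in either library for 2 units in TT-Seq, 4 in 4sU-Seq, 124 in sheared total RNA and 125 in unsheared total RNA. In sheared total RNA 529 units had no more than 3 counts over both libraries, the limit that a count of 0 allows, and in unsheared total RNA 488.

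All 2518 units together took 0.591 ± 0.000718% of unit counts in TT-Seq, 0.572 ± 0.0362% in 4sU-Seq, 0.325 ± 0.00986% in sheared total RNA and 0.351 ± 0.00281% in unsheared total RNA (SD, n = 2 each). Both purified groups lay above both unpurified groups with no overlap, and with 2 libraries against 2 an exact two-sided permutation test cannot go below 0.33. The 1028 antisense units that overlap GENCODE took 2.98 ± 0.0106% in TT-Seq, 3.69 ± 0.036% in 4sU-Seq, 3.68 ± 0.0364% in sheared total RNA and 3.87 ± 0.00709% in unsheared total RNA (SD, n = 2 each), lower in TT-Seq than in sheared total RNA. Units ranked alike in the 2 libraries of a group, with Spearman correlations across units of 0.981 in TT-Seq, 0.972 in 4sU-Seq, 0.911 in sheared total RNA and 0.913 in unsheared total RNA. These are across units, which are not independent replicates.

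Where an antisense unit overlaps an mRNA unit, the share of counts on the antisense strand can be read free of library scaling. Over 1553 such windows the antisense strand held 15.7% of pooled counts in both TT-Seq libraries, 11.2 and 12.1% in 4sU-Seq, 4.8 and 5.14% in sheared total RNA and 5.21 and 4.9% in unsheared total RNA. In the median window with at least 20 counts it held 18.8 and 18.9% in TT-Seq, 10.7 and 11.8% in 4sU-Seq, 3.15 and 3.05% in sheared total RNA and 3.67 and 3.45% in unsheared total RNA. Windows with at least 20 counts differed in number between libraries. Among them, antisense counts exceeded sense counts in 332 of 1377 and 335 of 1405 in TT-Seq, and 244 of 1356 and 254 of 1372 in 4sU-Seq. In sheared total RNA it was 58 of 1142 and 50 of 1077, and in unsheared total RNA 68 of 1123 and 54 of 1067. In each of these measures both purified groups lay above both unpurified ones, as the plot of antisense counts by library shows.

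**Figure D3:**
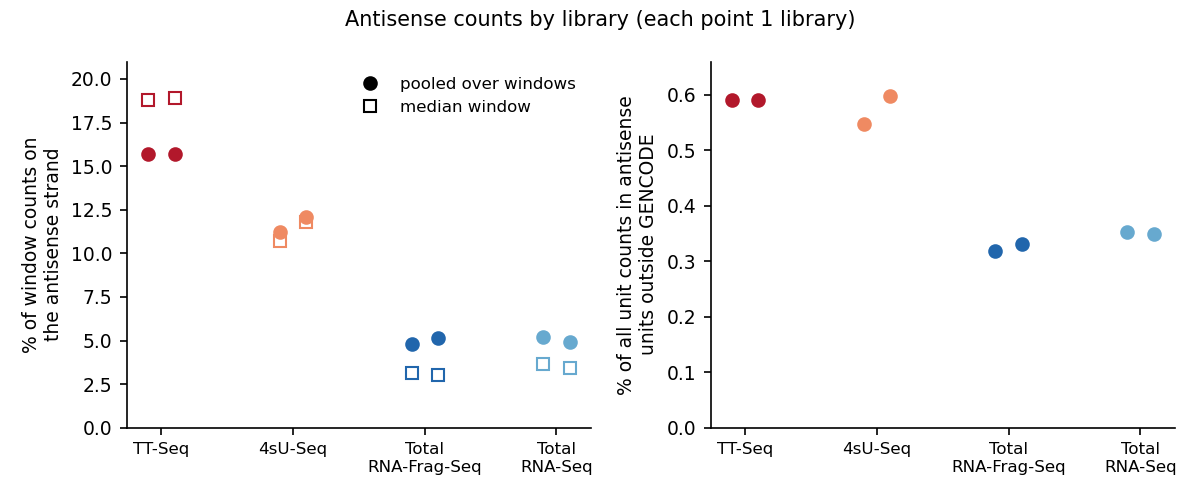
Left, antisense counts as % of all counts in windows where an antisense unit overlaps an mRNA unit (y axis), pooled (filled) and in the median window (open), for each library of the 4 RNA groups (x axis); right, % of all unit counts that fell in the 2518 antisense units. TT-Seq stands at 15.7% pooled and both total RNA groups at 4.8 to 5.21%.

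Fitted window by window across 4541 windows of non-coding units opposite mRNA units, the antisense share was higher in TT-Seq than in sheared total RNA in 840 of 1490 windows of the antisense units outside GENCODE and lower in 20. Over all windows fitted 50.8% were higher and 6.56% lower, and the median log2 change in the odds of the antisense strand was 2.04 here against 1.58 over all. In 4sU-Seq against unsheared total RNA 527 were higher and 24 lower, against 33.3 and 4.38% over all, with medians of 1.19 and 0.91. By position the share rose in 347 of 803 windows of units that began within 2 kb of the mRNA start and in 463 of 632 of those that began farther inside, in TT-Seq over sheared total RNA.

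The steepest rises of the share by the naming rule were opposite ZMAT3, PPP1CA and an unnamed mRNA unit. Opposite ZMAT3, a p53 target that encodes an RNA-binding zinc finger protein, the window held 65 antisense and 4 sense counts, then 63 and 2, in the TT-Seq libraries. In sheared total RNA it held 0 antisense and 11 sense counts, then 0 and 3. A few windows went the other way: opposite CKAP2L, a mitotic spindle protein gene, they held 3 antisense and 79 sense counts and 5 and 121 in TT-Seq, against 6 and 10 and 3 and 8 in sheared total RNA (log2 odds -3.60 ± 0.92, SE; adjusted p = 0.000259, edgeR). That antisense unit itself, which runs on outside the window, was higher in TT-Seq (log2 1.31 ± 0.29).

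Most antisense units that could be tested were higher in purified than in unpurified sheared RNA, in libraries of which TT-Seq also served to draw the units. Of the 2518, 2179 passed the filter on low counts (edgeR's filterByExpr), which a unit can pass through the purified libraries alone, so the counts below describe those and not every unit. TT-Seq exceeded sheared total RNA for 1798 and fell below it for 68 at an adjusted p of 0.05. Over all 19318 units tested the same test called 43.2% higher and 37.8% lower, and the median log2 fold change was 1.81 for the antisense units and 0.09 for all units. Called and at least 2-fold higher were 1601 (73.5%, against 30.4% of all units), and called and at least 4-fold higher 949 (43.6%, against 18.3%). Both TT-Seq libraries lay above both sheared total RNA libraries in 1956 units and below in 103, with no overlap in 94.5% of these units and 91.4% of all units tested. With no scaling beyond library totals the median of all units stood at 0.44 in place of 0.09, and that of the antisense units at 2.16.

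Without shearing the same direction was seen in libraries that played no part in drawing the units. 4sU-Seq exceeded unsheared total RNA for 1450 and fell below it for 37, against 40.2 and 28.2% of all units. The median log2 fold change was 1.24 for the antisense units and 0.19 for all units (0.33 for all units with no scaling). Called and at least 2-fold higher were 1195 (54.8%, against 23.3% of all units), and called and at least 4-fold higher 489 (22.4%, against 10.4%).

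**Figure D4:**
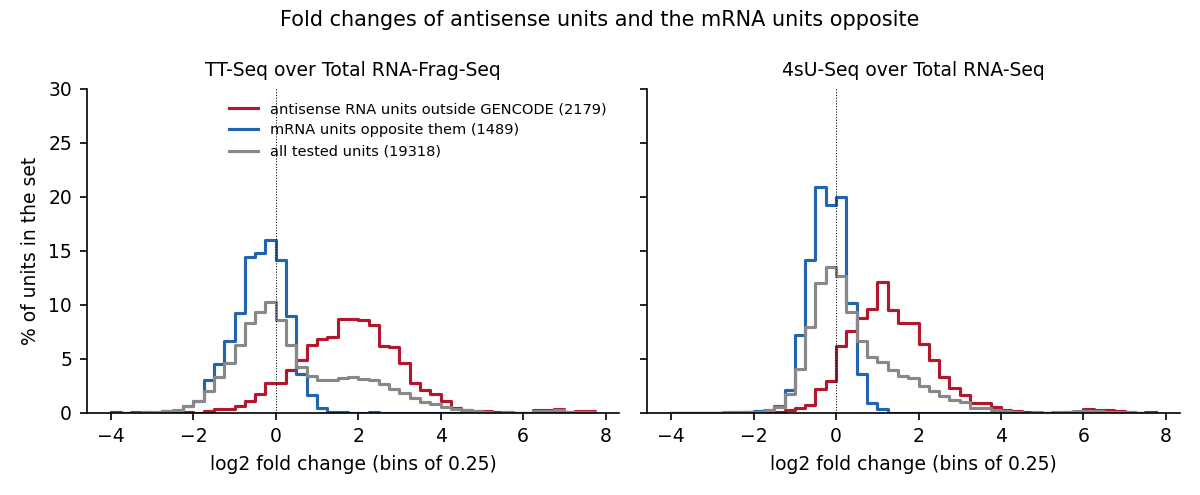
Share of units (y axis, %) by log2 fold change (x axis, bins of 0.25) in TT-Seq over sheared total RNA (left) and 4sU-Seq over unsheared total RNA (right), for 2179 antisense units outside GENCODE, the 1489 mRNA units opposite them and all 19318 units tested. The antisense units centre on 1.81 and 1.24, the mRNA units opposite on -0.33 and -0.19.

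The antisense units moved apart from the mRNA units they oppose. Over 1400 pairs with both tested, the antisense fold change was above that of the opposite mRNA unit in 1344 pairs for TT-Seq over sheared total RNA (medians 1.79 and -0.35) and in 1322 for 4sU-Seq over unsheared total RNA (1.21 and -0.20). The 1489 mRNA units with an antisense unit had a median of -0.33 and the other 6319 one of -0.34 in TT-Seq over sheared total RNA, so their changes were close. Per kb, the mRNA unit stood above its antisense unit by a median of 3.93 times in TT-Seq, 4.73 in 4sU-Seq, 19.2 in sheared total RNA and 13.8 in unsheared total RNA. The antisense unit stood higher in 151 of 1586 pairs in TT-Seq, 97 in 4sU-Seq, 20 in sheared total RNA and 33 in unsheared total RNA.

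Levels of a pair were almost unrelated. Spearman's correlation between antisense and mRNA CPM per kb was 0.0509 in TT-Seq, 0.0614 in 4sU-Seq, 0.149 in sheared total RNA and 0.153 in unsheared total RNA, across 1586 pairs that share their libraries. mRNA units with an antisense unit were longer (median 54999 bp, against 40495 bp for the other 6321) and had a median of 1.31 CPM per kb in TT-Seq against 0.958.

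Several of the units with the largest fitted rises by the naming rule, which took units with at least 0.5 CPM in the higher group, had no count at all in sheared total RNA. Opposite ZMAT3 (chr3:179071662-179073440, plus strand, starting 671 bp inside) the unit had 1.09 and 1.04 CPM in TT-Seq, with 0.366 and 0.481 in 4sU-Seq, against 0 and 0 in sheared total RNA and 0.0782 and 0.0467 in unsheared total RNA. That is at least 20.6-fold higher in TT-Seq than in sheared total RNA, with 3 counts over both libraries as the floor. Both TT-Seq libraries stood above both 4sU-Seq libraries here (log2 1.33 ± 0.27; adjusted p = 0.000589, edgeR).

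At LSM5, whose promoter is printed above, the unit (chr7:32490498-32491441, plus strand) had 0.733 and 0.711 CPM in TT-Seq, with 0.731 and 0.71 in 4sU-Seq, against 0 and 0 in sheared total RNA and 0.0782 and 0.0467 in unsheared total RNA. It was at least 14-fold higher in TT-Seq than in sheared total RNA and level with 4sU-Seq. The LSM5 mRNA unit as drawn starts 5473 bp beyond it, so by the units this start counts as internal and by RefSeq as 118 bp upstream. N20 at this start was 5.23 ± 0.64 log2 above its flanks (adjusted p = 4.92e-07, edgeR).

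Opposite PPP1CA, the catalytic subunit of protein phosphatase 1, the unit (chr11:67401726-67402904, plus strand) had 0.631 and 0.64 CPM in TT-Seq, with 0.528 and 0.549 in 4sU-Seq, against 0 and 0 in sheared total RNA and 0.0391 and 0.187 in unsheared total RNA. It was at least 12.3-fold higher in TT-Seq than in sheared total RNA, while the PPP1CA mRNA unit went the other way, with 9.77 and 10.5 CPM in TT-Seq against 104 and 79.1 in sheared total RNA (log2 -3.17 ± 0.13). Strands of 1 locus thus changed in opposite directions. The bound was at least 11.2-fold at the MFGE8 promoter (chr15:88913316-88916541, plus strand), at least 11.1-fold opposite an unnamed mRNA unit (chr5:145835123-145836796, plus strand) and at least 10.2-fold opposite ARHGAP18 (chr6:129709955-129710959, plus strand).

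Divergent starts gave the other large ratios. Upstream of CENPC, a centromere protein, the unit (chr4:67545702-67546572, plus strand) began 17 bp from the mRNA unit start and held 139 counts over both TT-Seq libraries against 1 in sheared total RNA, a ratio of 58.5 after scaling (exact 95% counting interval 10.3 to 2326). N20 was 8.29 ± 0.92 log2 above its flanks there. Upstream of an unnamed mRNA unit, in a window with the RefSeq gene TNRC6A on the other strand (chr16:24727040-24729615, minus strand) 199 counts stood against 2, a ratio of 41.9 (11.4 to 348). Upstream of the kinase gene UHMK1 (chr1:162496664-162497747, minus strand) the ratio was 25 (6.78 to 209) in TT-Seq over sheared total RNA and 29.3 (5.06 to 1178) in 4sU-Seq over unsheared total RNA. These intervals cover counting error only.

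In 4sU-Seq over unsheared total RNA, the rule also named a unit on chromosome X over ARMCX2 and one opposite KANSL3, a subunit of the NSL acetyltransferase complex. The first (chrX:101658778-101660002, plus strand) had 0.792 and 0.595 CPM in 4sU-Seq against 0 in both unsheared total RNA libraries, at least 11-fold higher. The second (chr2:96638460-96639889, plus strand) had 0.569 and 0.618 CPM in 4sU-Seq against 0 in both, at least 9.27-fold higher. In TT-Seq the KANSL3 unit had 0.792 and 0.697 CPM, against 0.121 and 0.118 in sheared total RNA.

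Read density picked out short units. The 6 with the highest TT-Seq CPM per kb were 268 to 767 bp long. They were chosen by their TT-Seq level, so their values against sheared total RNA are a description. One over ULK2, an autophagy kinase gene (chr17:19860870-19861137, plus strand), had 2.6 and 2.55 CPM in TT-Seq, with 1.08 and 1.51 in 4sU-Seq, against 0.213 and 0.118 in sheared total RNA and 0.196 and 0.14 in unsheared total RNA (TT-Seq over sheared total RNA log2 3.88 ± 0.32; adjusted p = 1.89e-08, edgeR). At the DNAL1 promoter the unit (chr14:73644575-73644882, minus strand) had 1.41 and 1.61 CPM in TT-Seq, against 0.152 and 0 in sheared total RNA (log2 4.09 ± 0.51; adjusted p = 1.94e-06, edgeR). At the CLK2 promoter no such rise was found: 4.11 and 3.68 CPM in TT-Seq overlapped 5.86 and 3.87 in sheared total RNA (log2 -0.34 ± 0.19; adjusted p = 0.11, edgeR), and without sheared total RNA replicate 2 the value was -0.62. This unit was lower in 4sU-Seq, with 2.34 and 3.16 CPM, than in unsheared total RNA, with 5.56 and 4.25 (log2 -0.85 ± 0.21; adjusted p = 0.00288, edgeR).

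The 68 units lower in TT-Seq included some whose antisense counts were of the size of wrong-strand background. A unit on chromosome 8 (100721383 to 100722069, plus strand) had 0.132 and 0.199 CPM in TT-Seq, with 0.792 and 1.08 in 4sU-Seq, against 2.31 and 3.99 in sheared total RNA and 3.79 and 3.64 in unsheared total RNA. Its counts were 0.381 to 0.975% of those on the opposite strand, which reached 11721 in a library. Among the 8 lowest by the naming rule the same held on chromosome 7 (5526416 to 5533338, plus strand, 0.757 to 1.27%), over HSPB1, a small heat-shock protein gene (0.635 to 1.28%), over the histone gene H1-2 (0.576 to 1.25%) and opposite PRAME, a cancer-testis antigen gene (0.46 to 0.86%). All 5 lay within 1.5 times the 90th percentile of that background in every library, so antisense RNA and sense reads on the wrong strand cannot be told apart there. Each was still called lower after the median background share was subtracted. That step cannot decide the question, since wrong-strand reads above the median share stay in the counts.

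In the other 3 of those 8 the antisense counts were a larger part. Over the histone genes H1-4 and H2BC5 the unit had 4.46 and 5.43 CPM in TT-Seq against 13.2 and 14.9 in sheared total RNA, at 2.47 to 3.71% of the opposite strand over the 8 libraries. Over SEMA4C and FAM178B (chr2:96866986-96885646, plus strand) it had 13.3 and 13.9 CPM in TT-Seq, with 28.8 and 36.1 in 4sU-Seq, against 35.3 and 37.7 in sheared total RNA and 41.1 and 44.7 in unsheared total RNA (TT-Seq over sheared total RNA log2 -1.43 ± 0.10; adjusted p = 2.47e-09, edgeR), at 10.1 to 17.6%. Opposite ZNF215, a zinc finger gene (chr11:6910568-6927169, minus strand), 5.02 and 4.88 CPM in TT-Seq stood against 12.3 and 12.5 in sheared total RNA (log2 -1.32 ± 0.10). Over the whole unit its counts were 166 to 332% of those on the other strand, but in the part that overlaps ZNF215 antisense counts were below sense counts in all 8 libraries, with 17 against 98 and 24 against 107 in TT-Seq and 38 against 118 and 43 against 100 in sheared total RNA. For the 1798 higher units, antisense counts at or under that 90th percentile were found in 3 and 2 units in the TT-Seq libraries and in 143 and 175 in sheared total RNA.

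Fewer of these units differed between the purified groups, sheared and unsheared. TT-Seq exceeded 4sU-Seq for 287 and fell below it for 142, against 19.8 and 28.7% of all units, with a median log2 of 0.19 (0.01 over all units). Opposite MTO1, a mitochondrial tRNA-modifying enzyme, the unit (chr6:73457111-73461937, minus strand) had 2.71 and 3.1 CPM in TT-Seq against 1.1 and 1.05 in 4sU-Seq (log2 1.43 ± 0.18; adjusted p = 5.14e-06, edgeR). Opposite IFNAR1, a type I interferon receptor subunit (chr21:33323785-33325971, minus strand), it had 0.997 and 1.02 CPM in TT-Seq against 3.41 and 3.02 in 4sU-Seq (log2 -1.67 ± 0.17; adjusted p = 6.88e-07, edgeR). Groups did not overlap in either unit, nor in 57.3% of the antisense units against 74.7% of all units tested. Without TT-Seq replicate 1 the counts were 139 higher and 86 lower.

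Few were called different between the total RNA groups, where the median of the 2518 units was 6 or 7 counts in each library. At that depth changes can go uncalled. Both sheared libraries lay above both unsheared ones in 203 of the units tested and below in 706. The groups did not overlap in 41.7% of these units, against 59.4% of all units tested. Sheared total RNA exceeded unsheared total RNA for 28 and fell below it for 65 (against 16.6 and 5.54% of all units), with a median log2 of -0.30 against -0.03 over all. The split depends on scaling: it was 15 higher and 120 lower with DESeq2's size factors and 11 and 145 with no scaling, where the median of all units was -0.17. A unit opposite the mRNA unit named for HDAC6, a cytoplasmic deacetylase gene, (chrX:48780960-48801612, minus strand) also lies over the erythroid factor gene GATA1. That mRNA unit held 2 genes, so the overlap is not with HDAC6 alone. The antisense unit had 6.32 and 6.24 CPM in sheared total RNA against 4.42 and 3.59 in unsheared total RNA (log2 0.64 ± 0.15; adjusted p = 0.00568, edgeR). The HDAC6 unit was no longer called without sheared replicate 2 (0.53) or unsheared replicate 2 (0.51). Opposite PIP5K1B, a phosphoinositide kinase gene (chr9:68774714-68779936, minus strand), 0.152 and 0.197 CPM in sheared total RNA stood against 0.469 and 0.607 in unsheared total RNA (log2 -1.62 ± 0.45; adjusted p = 0.0161, edgeR). The PIP5K1B unit was no longer called without sheared replicate 1 (-1.42) or unsheared replicate 2 (-1.43), nor with the deposited counts per unit (-1.06). Without sheared replicate 2 the count of higher units was 6.

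The interaction, the purification effect in sheared RNA less that in unsheared RNA, was called positive for 148 and negative for 46, against 8.78 and 25.8% of all units (median log2 0.44, over all -0.04). With DESeq2's size factors it was 251 and 39, and with no scaling 280 and 28, where the median of all units was 0.16. At PIP5K1B, where TT-Seq had 2.51 and 2.47 CPM and 4sU-Seq 1.26 and 1.26, it was 2.60 ± 0.48 (adjusted p = 0.000449, edgeR). This comparison shares all 8 libraries with those above and adds no independent libraries.

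Antisense units also lay opposite genes known for K562 and its leukaemia. Lists of erythroid regulators, BCR-ABL signalling genes and chromatin regulators held 50 genes with an mRNA unit, and 18 antisense units lay opposite 16 of them. Over all 7810 mRNA units, 1489 (19.1%) had an antisense unit opposite. The listed genes were not matched to other mRNA units by length or level, and whether they differ was not tested. Of the 18 antisense units, 16 could be tested, of which 15 were higher in TT-Seq than in sheared total RNA and 0 lower (1 at an adjusted p above 0.05), with a median log2 of 1.85. Higher calls made up 43.2% of all units and 82.5% of the 2179 antisense units tested in that comparison. In 4sU-Seq over unsheared total RNA 9 of the 16 were higher and 1 lower, where higher calls made up 40.2% of all units and 66.5% of the antisense units tested.

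Opposite SOS1, the Ras exchange factor recruited by GRB2, the unit (chr2:39120848-39128071, plus strand) had 5.87 and 6.21 CPM in TT-Seq, with 3.92 and 4.33 in 4sU-Seq, against 0.789 and 0.434 in sheared total RNA and 0.587 and 0.653 in unsheared total RNA. It rose 9.51-fold in TT-Seq over sheared total RNA (log2 3.25 ± 0.21; adjusted p = 8.54e-10, edgeR) while the SOS1 mRNA unit had 256 CPM in both TT-Seq libraries against 312 and 325 (log2 -0.32 ± 0.05). In their overlap TT-Seq held 223 antisense and 345 sense counts, then 260 and 355, against 12 and 95, then 4 and 82, in sheared total RNA.

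Opposite MYB, a factor of blood progenitors, the unit (chr6:135177544-135187521, minus strand) starts 6938 bp inside. It had 4.15 and 4.48 CPM in TT-Seq, with 4.21 and 5.61 in 4sU-Seq, against 1.34 and 1.5 in sheared total RNA and 1.68 and 2.19 in unsheared total RNA (log2 1.61 ± 0.20; adjusted p = 1.59e-06, edgeR). Neither polymerase antibody was enriched at this start: N20 stood at log2 -6.55 ± 2.41 against its flanks (adjusted p = 0.0208, edgeR), and S2P at -8.02 ± 2.03 (adjusted p = 0.00196, edgeR). The errors are wide, so these fitted sizes are no measure of depletion. Whether reads can map to the start bins was not tested.

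Opposite STAT5B, a signal transducer downstream of BCR-ABL (chr17:42270034-42281068, plus strand), 3.3 and 4.04 CPM in TT-Seq stood against 1.52 and 2.05 in sheared total RNA (log2 1.06 ± 0.24; adjusted p = 0.00079, edgeR). Opposite RUNX1, a haematopoietic factor, the unit (chr21:34886788-34895245, plus strand), 162502 bp inside, had 2.3 and 2.74 CPM in TT-Seq against 1.52 and 0.829 in sheared total RNA (log2 1.06 ± 0.24; adjusted p = 0.000723, edgeR). Opposite LMO2, the adapter of the TAL1 complex, the unit (chr11:33883931-33895135, plus strand) had 2.74 and 2.89 CPM in TT-Seq against 0.455 and 0.75 in sheared total RNA (log2 2.26 ± 0.30; adjusted p = 5.28e-06, edgeR). In all 3 both TT-Seq libraries lay above both sheared total RNA libraries.

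Among chromatin regulators, KMT2D, a histone H3 lysine methyltransferase, had an antisense unit (chr12:49060556-49065666, plus strand) with 2.1 and 1.99 CPM in TT-Seq against 0.395 and 0.355 in sheared total RNA (log2 2.43 ± 0.27; adjusted p = 5.88e-07, edgeR). Its mRNA unit, which held 3 genes and starts 9436 bp beyond the antisense start, stood at 123 and 131 CPM in TT-Seq against 433 and 461 (log2 -1.81 ± 0.06). The antisense and mRNA units changed in opposite directions here too, but these values are of the whole mRNA unit and not of KMT2D alone. Opposite ASXL1, a Polycomb-associated protein gene (chr20:32354345-32358511, minus strand), 1.51 and 1.86 CPM in TT-Seq stood against 0.304 and 0.197 in sheared total RNA, and N20 at the start was 6.55 ± 0.71 log2 above its flanks. At CHD4-AS1, whose promoter is printed above, the rise was small: 1.98 and 1.48 CPM in TT-Seq against 1.06 and 1.22 in sheared total RNA (log2 0.60 ± 0.24; adjusted p = 0.0302, edgeR), and 1.24 and 1.67 CPM in 4sU-Seq overlapped 1.56 and 1.21 in unsheared total RNA (adjusted p = 0.881, edgeR). The first was no longer called with the DESeq2 test (0.59), nor without TT-Seq replicate 1 (0.40) or sheared replicate 1 (0.49). The mRNA unit named for CHD4 held 2 genes.

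**Figure D5:**
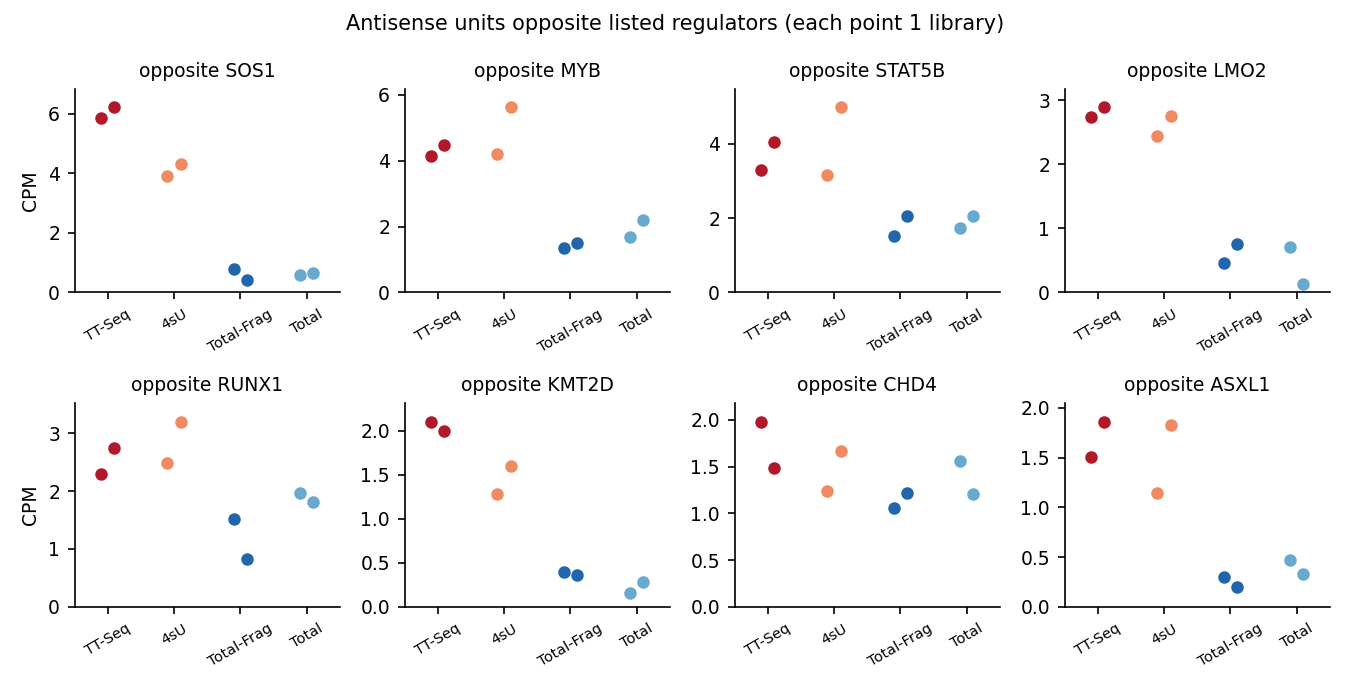
CPM (y axes, each from 0) of the 8 antisense units opposite listed regulators in each of the 8 RNA libraries (x axis, 1 point per library, in the 4 RNA groups). The SOS1 unit reads 5.87 and 6.21 CPM in TT-Seq against 0.789 and 0.434 in sheared total RNA, and the CHD4 unit shows the smallest separation.

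The depositors' rates set these units apart from mRNA units by decay more than by synthesis. In the authors' deposited table the median decay rate was 0.162 for 2515 antisense units outside GENCODE with a rate, against 0.0141 for 6913 mRNA units, 11.5 times higher. By the authors' deposited table the decay rate of 97.7% of the antisense units exceeded the median of the mRNA units. The median synthesis rate in the authors' deposited table was 0.00496 against 0.00599. The unit of the rates is not given there, and they rest on the same TT-Seq and total RNA libraries. The 892 antisense units that overlap GENCODE had a median decay rate of 0.0243 in the authors' deposited table. Convergent and upstream antisense units outside GENCODE had medians of 0.166 and 0.174 in the authors' deposited table, near that of the antisense units described here.

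With all 2518 cut by length into 4 groups of 629 or 630, the median log2 fold change of TT-Seq over sheared total RNA was 2.52 for the 318 tested of the shortest (105 to 1354 bp), 2.27 and 1.82 in the next groups and 1.00 for the 630 longest (from 4772 bp). The filter removed 312 of the 630 shortest and none of the longest, and a short unit can pass it mainly by being high in the purified libraries. Length and the filter therefore cannot be told apart in the median of the shortest group. In the third group (2606 to 4768 bp) and the longest every unit was tested, with medians of 1.82 and 1.00. Why these medians differ was not tested.

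Of 48 listed genes that act on unstable nuclear RNA, 35 had an mRNA unit, of which 11 were higher and 13 lower in TT-Seq than in sheared total RNA (median log2 -0.08, over all units 0.09), where 43.2% of all units were called higher and 37.8% lower. The helicase MTREX had 353 and 345 CPM in TT-Seq against 244 and 252 (log2 0.49 ± 0.05; adjusted p = 1.18e-07, edgeR). The Integrator subunit INTS1 had 20.4 and 21.6 CPM against 92.9 and 87.8 (log2 -2.10 ± 0.08; adjusted p = 5.5e-12, edgeR).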

How the data were processed

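Data from K562 cells were used as deposited, from 8 RNA libraries and 4 ChIP libraries in 6 groups of 2. The authors deposited raw fragment counts per 200 bp bin, with RNA counted on each strand and ChIP on both together, per the description that accompanies the files. Units, classes and rates were drawn by the authors with STAN from TT-Seq, per the same description, and the unit of the rates is not stated. STAR 2.3.0, Bowtie2 2.1.0, SAMtools and hg38 are named in the submitters' processing notes, with no role given. All column headers of per-library values could be mapped (0 left over).

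Here the counts of a unit were the sum over bins whose centre lay in the unit on its strand. CPM used TMM-scaled library sizes. All units that passed edgeR's filterByExpr were fitted together over the 8 RNA libraries with edgeR 4.0.16 (robust quasi-likelihood, R 4.3.3, limma 3.58.1), p-values were adjusted over all of them by Benjamini and Hochberg, and 0.05 was the threshold. The antisense share was fitted with a term per library in windows of at least 50 counts, and ChIP compared 3 start bins with 10 flank bins for starts with at least 20 counts. Scripts were tested on simulated data. Python 3.11.15, pandas 2.3.3, numpy 2.4.6, scipy 1.17.1 and matplotlib 3.10.9 were used, and DESeq2 1.42.0 as an alternative. A count of 0 allows up to 3 counts, and 95% intervals are exact. Both cover counting error only.

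An mRNA unit took a RefSeq symbol where the spans matched (Jaccard of at least 0.5, or at least 0.8 of the gene covered with starts within 3 kb). Since an mRNA unit can hold several genes, opposite a gene means opposite the mRNA unit named for it. Named units were the 6 with the highest TT-Seq CPM per kb, the 8 highest and 8 lowest fold changes of TT-Seq over Total RNA-Frag-Seq with at least 0.5 CPM in the higher group, the 3 highest and 3 lowest of the other comparisons and of the antisense share, and up to 8 opposite listed genes. The units described, the gene lists and the tests were chosen with earlier results of these data known. Alternatives were other scalings, filters, tests, windows and a count table per unit, and leaving out each library. The table of intron counts was not used here. Sequences come from RefSeq, GRCh38.p14. A result for 1 marker list is not reported here.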

Additional observations from a re-analysis of the deposited data

Results flagged for a closer look

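For 19 of the 47 named antisense units the purification effect in sheared RNA differed from that in unsheared RNA by the interaction term of the edgeR fit, in 9 upward and in 10 downward. The naming rule picked some of these units by this same term or by extreme fold changes, so the count is a description. Over all 19318 units 8.78% were called upward and 25.8% downward, and over the 2179 antisense units tested 6.79 and 2.11%. The values below are log2 of TT-Seq over Total RNA-Frag-Seq less log2 of 4sU-Seq over Total RNA-Seq. It was 5.82 opposite ZMAT3, 5.44 opposite PPP1CA, 5.93 at the MFGE8 promoter, 5.71 opposite an unnamed mRNA unit on chromosome 5 and 5.21 opposite ARHGAP18. In these 5 units both Total RNA-Frag-Seq libraries held no count, so the fitted size depends on the prior count and is no bound. Opposite KANSL3 it was -5.05, with no count in either Total RNA-Seq library. The KANSL3 call was lost when any of the 8 libraries was left out, with no scaling (-4.76) and with bins wholly inside the unit (-3.70). The call opposite ZMAT3 was lost with any of 3 libraries left out (lowest 5.58), that at the MFGE8 promoter with any of 5 (4.96 to 6.12) and that opposite the unnamed mRNA unit with any of 5 (4.73 to 5.89).

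Units with counts in every group gave smaller values. It was 2.6 opposite PIP5K1B, 1.7 opposite an unnamed mRNA unit at 132407069 to 132411031 on chromosome 5, 1.46 opposite MTO1 and 0.58 over the histone genes H1-4 and H2BC5. Below 0 it was -1.53 opposite MMGT1, a membrane magnesium transporter gene, -1.42 opposite IFNAR1, -1.23 opposite ABHD11, a mitochondrial hydrolase gene, -1.02 over SEMA4C and FAM178B, -0.74 opposite ZNF215 and -0.72 opposite the mRNA unit named for HDAC6. In 3 units with antisense counts near the wrong-strand background it was -2.19 (chromosome 8), -0.96 (chromosome 7, 5526416 to 5533338) and -1.23 (over HSPB1). The part of that background in these 3 values was not tested here.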

How the results depend on the processing

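The direction of each count's split held under every alternative for TT-Seq and 4sU-Seq over total RNA. Counts that moved by over 1.5 times were these. With a mean of at least 0.5 CPM TT-Seq over Total RNA-Frag-Seq had 1112 higher units, since fewer were tested. With no scaling 37 were lower there, 11 higher and 145 lower in Total RNA-Frag-Seq over Total RNA-Seq, and 280 and 28 in the interaction. DESeq2's size factors gave 60 lower in 4sU-Seq over Total RNA-Seq, 15 and 120 in Total RNA-Frag-Seq over Total RNA-Seq and 251 in the interaction. The DESeq2 test gave 963 higher in 4sU-Seq over Total RNA-Seq, 111 and 80 in TT-Seq over 4sU-Seq and 12 higher in Total RNA-Frag-Seq over Total RNA-Seq. The deposited counts per unit, matched by sorted rows after seeing the data, gave 172 and 28 in TT-Seq over 4sU-Seq, 20 lower in Total RNA-Frag-Seq over Total RNA-Seq and 29 lower in the interaction; file order, as planned, was not run, as its rows had no relation to the bins. For ChIP, flanks of 2 to 4 kb gave 227 lower for N20, and starts over 5 kb from others, fewer in number, 374 and 83 for N20 and 347 and 97 for S2P. The cause was not tested for the other changes.

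Leaving out each library in turn gave 1582 to 1765 higher and 54 to 67 lower in TT-Seq over Total RNA-Frag-Seq, 981 to 1412 and 27 to 48 in 4sU-Seq over Total RNA-Seq, 139 to 330 and 86 to 161 in TT-Seq over 4sU-Seq, 6 to 21 and 38 to 77 in Total RNA-Frag-Seq over Total RNA-Seq, and 103 to 218 and 28 to 52 in the interaction. Antisense shares gave 689 to 770 and 12 to 16, and 391 to 485 and 10 to 19. N20 gave 1405 to 1467 and 320 to 330, S2P 1132 to 1347 and 277 to 312. A replicate block gave 1797 and 69, 1451 and 38, 306 and 153, 29 and 70 and 154 and 50 in the same order, and 860 and 21 and 540 and 27 for the shares. Numbers did not pair the samples, with correlations of 0.00323 to 0.0995 between same-numbered libraries. Of 795 recomputed values of named units none reversed, 749 kept their call and 45 lost it, 38 of them with a library left out. Depth limits the total RNA groups most, with a median of 6 or 7 counts per unit.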

Other observations

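The top 10 units took 14.6 and 14.2% of these units' counts in TT-Seq, 20.2 and 17% in 4sU-Seq, 32.6 and 33% in sheared total RNA, and 26 and 26.9% in unsheared total RNA. The antisense units made up 13.3% of all units on chromosome 19 and 14.1% on the X chromosome, against 7.18% on chromosome 13, as counts with no test.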
